A study of Mus musculus with 5 samples.

Results

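Dual-specificity phosphatase and Sprouty genes that feed back on MAP kinase signalling were followed in mouse haematopoietic stem cells. The genes were taken by name from the deposited tables of raw counts and of TPM, an abundance corrected for gene length and library size. They are Dusp1, Dusp2, Dusp4, Dusp5, Dusp6, Dusp10, Spry1, Spry2 and Spred1, 9 of the 33894 genes in the files. All 9 passed the filter on low counts that kept 13696 genes for testing. The cells were sorted from the bone marrow of 8-week-old mice by lack of lineage markers, CD34 and Flt3 and by high c-Kit together with Sca1, and 6K of them went into each Smart-seq2 library, a full-length RNA-seq method for small inputs. There were 2 libraries from wild type (WT) mice and 3 from mice labelled as double deficient (dKO) for Lrp5 and Lrp6, co-receptors for Wnt ligands. The genotype label of the second group combines Vav-cre, Lrp5 fl/fl and also Lrp6 fl/fl. The Vav promoter drives Cre recombinase in blood-forming cells. The WT label names neither Cre nor floxed alleles, so the transgene and the loss of the genes cannot be told apart. The labels do not say that the libraries came from different mice, and p-values cover no more than the spread among these libraries.

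MAP kinases relay signals from growth factor and stress receptors to the nucleus. The Erk branch is activated through Ras, Raf and Mek, and the p38 and Jnk branches through parallel kinase cascades. Several Dusp genes are transcribed within minutes of kinase activation, and their protein products remove the activating phosphates from the kinases, which closes a negative feedback loop. Sprouty and Spred proteins act further upstream, between receptor tyrosine kinases such as Kit and the Ras and Raf proteins. In stem cells these loops sit downstream of Kit.

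Library totals lay between 16028512 and 28027458 counts, and 12894 to 16098 genes had at least 1 count. The library labelled dKO replicate 2 had the lowest total and the fewest genes, and its log2 CPM (counts scaled to library size) correlated with the nearest other library at 0.851, against 0.906 to 0.925 for the others. The targeted genes did not have lower counts in the libraries labelled dKO. Lrp6 had 660 and 232 counts in WT, against 790, 260 and 767 in the 3 labelled dKO, and Lrp5 had 7 and 32 against 37, 2 and 71. Gene-level totals do not reveal whether an exon is missing, so the group names below are those of the labels. All 17 stem cell markers examined, among them Mecom, Procr and Hlf, were detected in every library. Their summed level was 1312 to 1984 CPM in WT and 2525 to 2772 CPM in the libraries labelled dKO. Of 8 lists of other cell types, 3 also had every library labelled dKO above both WT libraries. All 10 erythroid markers had 1 or more counts in some library and summed to 160 to 164 CPM in WT against 271 to 368 CPM, the 8 megakaryocyte markers to 378 to 553 against 759 to 813 CPM, and the 8 dendritic and MHC class II markers to 427 to 585 against 830 to 1337 CPM. Some genes, among them Kit, Vwf, Flt3 and Epor, are shared by the lists among themselves or with the pathway lists below. Granulocyte progenitor markers stood at 42726 CPM in WT replicate 2, at 6622 CPM in WT replicate 1 and at 11271 to 15838 CPM in the libraries labelled dKO. Cd3e, Lepr and Pdgfra, markers of T cells and of stroma, had 0 counts in every library, but other genes of their lists were detected. The T and NK list summed to 599 to 1910 CPM, most of it from Nkg7 (562 to 1881 CPM). The stroma and endothelium list summed to 85.5 to 143 CPM, most of it from Pecam1 (58.8 to 124 CPM). In the B lineage and the mast cell and basophil lists, 7 of 8 tested markers each had a fold change above 0, against 52.2% of all tested genes. Their sums overlapped between groups. The part of these markers in the results below was not tested. In bulk RNA a change in the number of cells of a type and a change in RNA per cell cannot be told apart.

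The 6 phosphatase genes had higher mean values in the libraries labelled dKO, whereas Spry1, Spry2 and Spred1 had no shared direction. The median log2 fold change was 1.21 over the 6 Dusp genes and 0.12 over the 3 others, beside 0.04 over all tested genes. The difference between these medians was not tested. All 6 Dusp genes and 2 of the 3 others had a fold change above 0, as 52.2% of all tested genes did. In Dusp1, Dusp2, Dusp5, Dusp6 and Dusp10 every library labelled dKO lay above both WT libraries in CPM, a pattern found in 13.7% of all tested genes. The opposite pattern in CPM was found in 0 of the 9 genes and in 15.6% of all tested genes. On TPM the same 5 genes had every library labelled dKO above both WT libraries, against 18.6% of all tested genes. Spry1 had all 3 below both WT libraries on TPM, a pattern whose share of all tested genes is not given here. No gene of the 9 was called at an adjusted p under 0.05 by edgeR's quasi-likelihood test, which called 0 of 13696 genes (0%). At an unadjusted edgeR p under 0.05, 4 of the 9 genes were higher (Dusp2, Dusp5, Dusp6 and Dusp10), against 4.94% of all tested genes, and 0 were lower, against 5.19%. DESeq2 called 1.83% of the genes to which it gave an adjusted p and 0 of the 9, and limma-voom called 0 of the 9 and 0 of 13696 genes (0%). The 9 genes were chosen with earlier results of these libraries known, so these counts describe them and test nothing about them as a set. An exact permutation test of 2 libraries against 3 cannot go below p = 0.1, so none was used for single genes.

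**Figure D1:**
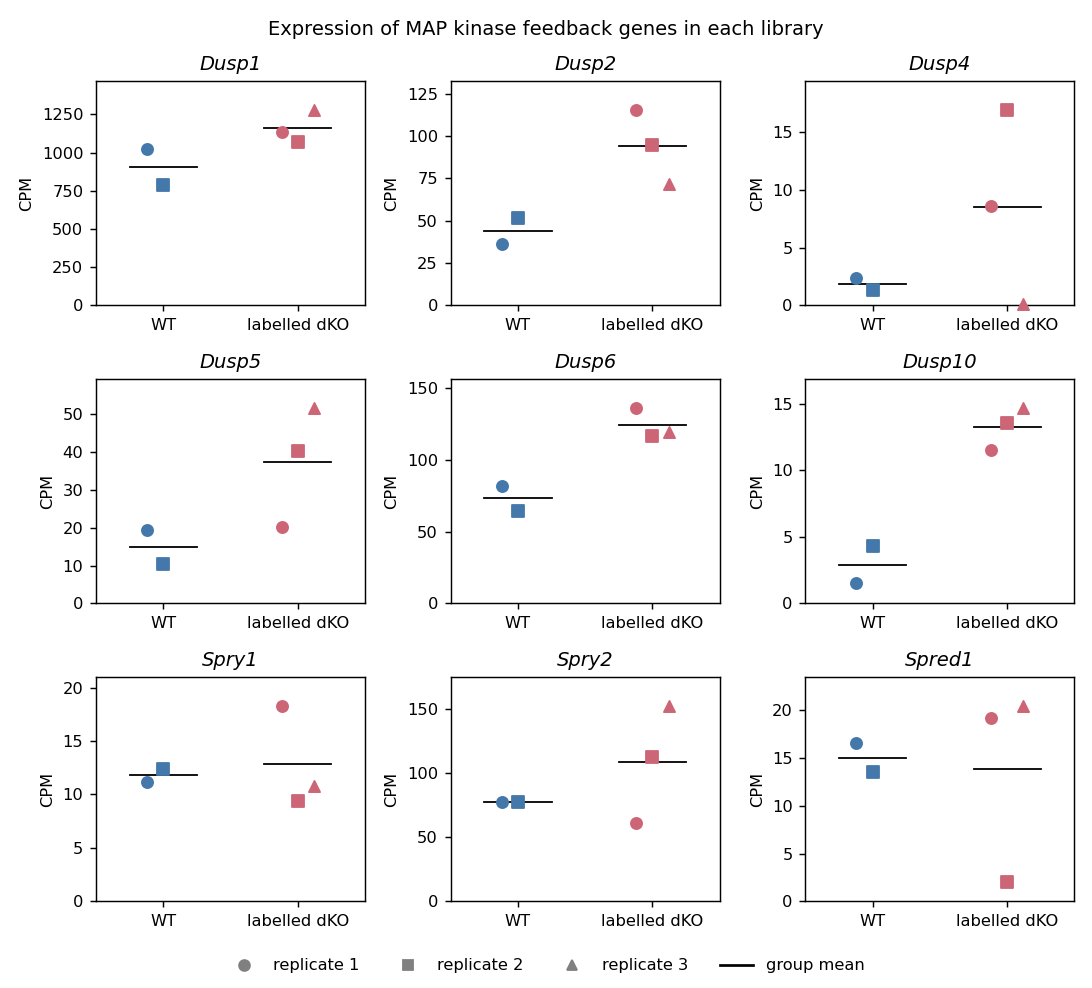
CPM of each gene (vertical axis, starting at 0, scaled per gene) in the 2 WT and 3 libraries labelled dKO; symbols mark the replicate number and lines the group means. In Dusp1, Dusp2, Dusp5, Dusp6 and Dusp10 every library labelled dKO is above both WT libraries, for Dusp4 the library labelled dKO replicate 3 is at 0.111 CPM, and for Spred1 the library labelled dKO replicate 2 is at 2.06 CPM.

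Levels differed widely among the genes. Dusp1 encodes a nuclear phosphatase that acts on p38, Jnk and Erk and is a classical immediate early gene. On TPM, which allows genes of different length to be compared, Dusp1 was the most abundant of the 9 in every library, at 638 ± 191 TPM in WT (SD, n = 2) and 902 ± 38.6 TPM in the libraries labelled dKO (SD, n = 3). It lay above 97.7% to 99.2% of the detected genes of each library. In WT it was followed by Spry2 (59.9 TPM), Dusp2 (45.0), Dusp6 (42.6), Dusp5 (10.1), Spry1 (6.70), Spred1 (4.27), Dusp10 (2.27) and Dusp4 (1.29). Among neighbours in this order, Dusp1 was above Spry2 and Dusp6 above Dusp5 in 5 of 5 libraries. Spry2 was above Dusp2 in 3 of 5 libraries, among them both WT libraries. Spred1 was above Dusp10 in both WT libraries and below it in all 3 labelled dKO. In the libraries labelled dKO the mean of Dusp10 took the sixth place and that of Spry1 the last. Dusp1 made up 84.3% and 87.7% of the summed TPM of the 6 Dusp genes in the WT libraries and 76.7% to 82.4% in those labelled dKO. The other 5 Dusp genes together measured 109 and 93.7 TPM in WT, against 266, 262 and 199.9 TPM in the 3 labelled dKO.

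**Figure D2:**
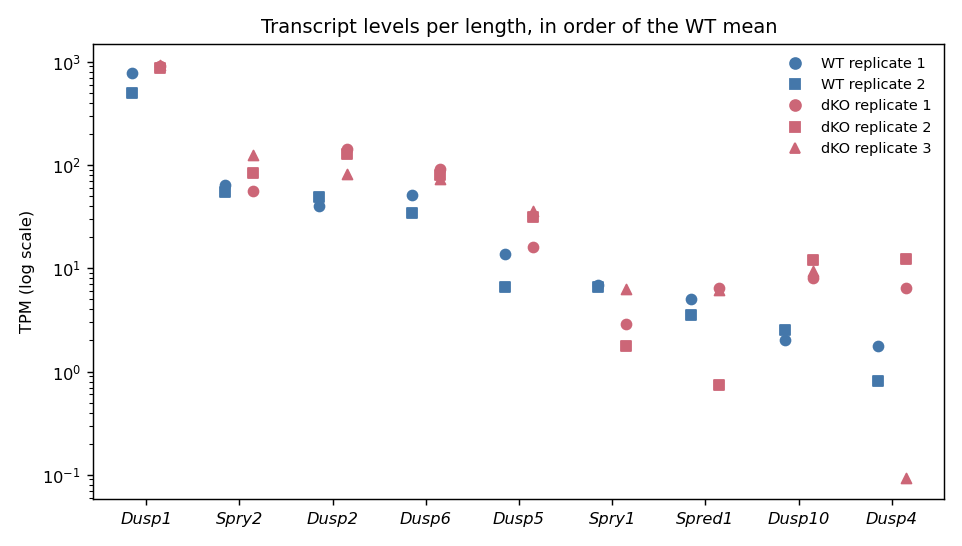
TPM of each gene on a log axis, in order of the WT mean (horizontal axis), with WT in blue and libraries labelled dKO in red. Dusp1 lies above the other genes in every library, between 503 and 937 TPM, and Dusp4 has the widest spread, from 0.0926 to 12.4 TPM.

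Dusp1 and Dusp10 both act on p38 and Jnk, and they differed widely in level. Dusp1 measured 1026 and 791 CPM in WT, against 1132, 1067 and 1277 CPM in the 3 labelled dKO replicates 1, 2 and 3. The lowest of these 3 was only slightly above WT replicate 1, so the groups were apart by less than their own spread. The log2 fold change was 0.35 (95% interval -0.10 to 0.80, adjusted p = 0.586, edgeR). Dusp10 encodes a phosphatase with a preference for p38 and Jnk. It measured 1.52 and 4.29 CPM in WT, from 40 and 107 counts, and 11.5, 13.5 and 14.7 CPM in the libraries labelled dKO, from 313, 224 and 396 counts. The libraries labelled dKO were close together and well above both WT libraries, which differed from each other by 2.82-fold. On TPM the WT pair stood closer, at 2.03 and 2.51 (1.24-fold). The difference estimated by edgeR was 2.19 on the log2 scale (95% interval 0.45 to 3.93, unadjusted p = 0.0199, adjusted p = 0.441, edgeR). Leaving out WT replicate 1 gave 1.62, and leaving out WT replicate 2 gave 3.11. In GENCODE M21 the gene 1700056E22Rik overlaps Dusp10 on the other strand. It had 3 to 53 counts, and since the standard form of Smart-seq2 does not mark strand, reads in the overlap cannot be assigned to one of the pair. The same holds for Dusp1, which overlaps Ergic1 on the other strand (1326 to 2337 counts), and for Dusp5 and Spry1, each with an opposite-strand transcript that the files do not list by that name.

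The start regions of the Dusp genes are shown for those whose window holds a site for a factor known to act on immediate early genes. The cyclic AMP response element (CRE) binds Creb factors and the CArG box binds the serum response factor Srf. RefSeq's table on GRCm38.p6 gave the stretch from 250 bases before to 50 bases after the start for 8 of the 9 genes, and Dusp4 was not in it. That build differs from the mm9 of the submitters' processing notes, and the coordinates belong to GRCm38.p6 alone. Capitals mark the full CRE (TGACGTCA), the short site TGACG, which also lies in the full site, and the CArG box, all sought on both strands. Dusp1 is on the minus strand at chr17:26508423-26508722, Dusp2 on the plus strand at chr2:127335909-127336208 and Dusp5 on the plus strand at chr19:53528895-53529194.
Dusp1: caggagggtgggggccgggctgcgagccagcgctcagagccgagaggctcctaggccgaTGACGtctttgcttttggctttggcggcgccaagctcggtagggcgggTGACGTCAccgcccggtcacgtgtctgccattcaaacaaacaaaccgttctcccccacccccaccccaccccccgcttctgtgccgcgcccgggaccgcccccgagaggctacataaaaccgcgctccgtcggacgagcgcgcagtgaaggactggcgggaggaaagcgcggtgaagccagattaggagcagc
Dusp2: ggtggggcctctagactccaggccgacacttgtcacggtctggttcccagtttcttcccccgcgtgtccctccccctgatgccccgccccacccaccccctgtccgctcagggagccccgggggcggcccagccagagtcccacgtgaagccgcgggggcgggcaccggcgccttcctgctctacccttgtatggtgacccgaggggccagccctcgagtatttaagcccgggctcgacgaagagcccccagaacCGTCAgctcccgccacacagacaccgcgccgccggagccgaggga
Dusp5: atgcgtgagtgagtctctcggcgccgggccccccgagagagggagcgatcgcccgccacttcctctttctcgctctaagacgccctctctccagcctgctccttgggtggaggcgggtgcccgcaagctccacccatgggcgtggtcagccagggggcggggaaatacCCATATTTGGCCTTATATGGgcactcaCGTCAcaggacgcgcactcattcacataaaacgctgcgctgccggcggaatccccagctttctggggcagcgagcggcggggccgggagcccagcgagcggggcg
The Dusp1 window holds 1 full CRE beginning 143 bases before the start, and a further short site. The full CRE was in 1 of the 8 windows and in 1.79% of the 32851 windows of the table. Dusp5 holds 2 CArG boxes that follow each other directly, beginning 82 and 72 bases before the start. The CArG box was found in 1.63% of all windows and in none of the other 7. The short site was found in Dusp1, Dusp2 and Dusp5 and in 20.8% of all windows. An AP-1 site (TGACTCA) and a TCF site (CTTTGAT) were in 0 of the 8 windows, against 5.20% and 3.73% of all windows, and an Ets site (CCGGAA) was in Spry2 alone, against 14.9%. These are matches of letters within 300 bases, and binding was not measured.

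Dusp2 and Dusp4 encode nuclear phosphatases induced by mitogens, Dusp2 mainly in blood cells. Dusp2 measured 36.4 and 51.7 CPM in WT, against 115, 94.6 and 71.9 CPM in the 3 labelled dKO. The groups did not overlap, and the 3 libraries labelled dKO were further from each other than the WT pair. The log2 fold change was 1.09 (95% interval 0.37 to 1.81, unadjusted p = 0.00835, adjusted p = 0.434, edgeR), a 2.13-fold difference. That was the smallest p of the 9 genes. Dusp4 had 63 and 34 counts in WT, against 234, 280 and 3 counts in the 3 labelled dKO. These counts correspond to 2.39 and 1.36 CPM in WT and to 8.63, 16.9 and 0.111 CPM in the others. The libraries labelled dKO replicates 1 and 2 were above both WT libraries, and replicate 3 was below both. The 3 counts of that library allow 0.0229 to 0.325 CPM (exact Poisson 95% interval, for counting error only). A drop that far below the lowest other library was seen in 0.442% of the 10186 genes with at least 1 CPM in each of the other 4 libraries. The log2 fold change of 2.18 had a 95% interval from -1.54 to 5.91 (adjusted p = 0.722, edgeR), and without the library labelled dKO replicate 3 it was 2.76 and without replicate 2 it was 1.24. Limma-voom with sample weights gave 0.16.

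Dusp5 and Dusp6 encode phosphatases selective for Erk, Dusp5 in the nucleus and Dusp6 in the cytoplasm. Dusp5 measured 19.3 and 10.5 CPM in WT, against 20.1, 40.2 and 51.5 CPM in the 3 labelled dKO. The library labelled dKO replicate 1 was barely above WT replicate 1, and the other 2 were well above either WT library. The difference estimated by edgeR was 1.32 on the log2 scale (95% interval 0.11 to 2.54, unadjusted p = 0.0358, adjusted p = 0.469, edgeR). Dusp6 measured 82.1 and 64.1 CPM in WT, against 136, 117 and 120 CPM in the 3 labelled dKO. Both groups were narrow, with 124 ± 10.4 CPM (SD, n = 3) in the libraries labelled dKO against 73.1 ± 12.7 CPM (SD, n = 2) in WT, and they did not overlap. The log2 fold change was 0.76 (95% interval 0.23 to 1.30, unadjusted p = 0.0113, adjusted p = 0.436, edgeR).

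**Figure D3:**
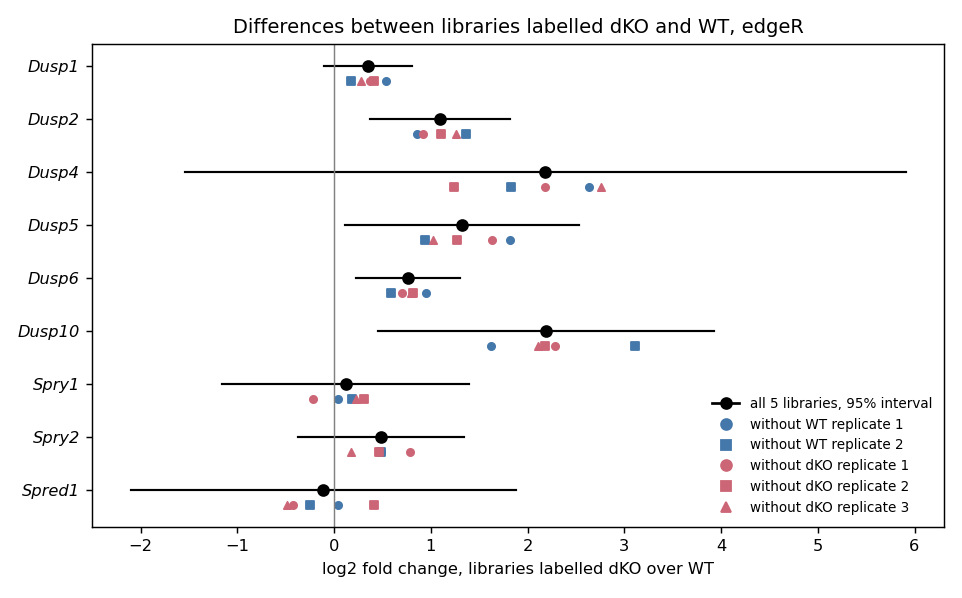
Log2 fold change of the libraries labelled dKO over WT by edgeR (horizontal axis) for each gene; black points and lines give the estimate from 5 libraries with its 95% interval, and small symbols the estimate with 1 library left out. The intervals of Dusp2, Dusp5, Dusp6 and Dusp10 lie above 0, those of the other 5 genes span 0, and the left-out estimates of Spry1 and Spred1 fall on both sides of 0.

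The inhibitors of the Ras and Raf step had no shared direction, and their difference from the phosphatases was not tested. The 95% intervals of Spry1, Spry2 and Spred1 each held the estimates of Dusp1 (0.35) and Dusp6 (0.76). Spry2, which blocks Erk activation downstream of receptor tyrosine kinases, measured 77.8 and 77.2 CPM in WT, against 60.9, 113 and 152 CPM in the 3 labelled dKO. One library labelled dKO was below the WT pair and 2 were above, and the library labelled dKO replicate 3 was 2.50 times as high as replicate 1. The difference estimated by edgeR was 0.49 on the log2 scale (95% interval -0.37 to 1.35, adjusted p = 0.733, edgeR). Spred1, which brings the Ras inhibitor neurofibromin to the membrane, measured 16.5 and 13.5 CPM in WT, against 19.2, 2.06 and 20.4 CPM in the 3 labelled dKO. Only the library labelled dKO replicate 2 was low, with 34 counts against 337 to 551 elsewhere. A value as far below the lowest of the other libraries was seen there in 5.71% of the 10736 genes with at least 1 CPM in each of the other 4. The log2 fold change of -0.11 had a 95% interval from -2.10 to 1.88 (adjusted p = 0.987, edgeR), and without that library it was 0.41.

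Spry1, a relative of Spry2, gave opposite directions on the 2 deposited scales. By counts it measured 11.2 and 12.4 CPM in WT, against 18.2, 9.43 and 10.8 CPM in the 3 labelled dKO. The groups overlapped, and the log2 fold change was 0.12 (95% interval -1.16 to 1.40, adjusted p = 0.976, edgeR). By TPM it measured 6.82 and 6.58 in WT, against 2.88, 1.78 and 6.27 in the 3 labelled dKO, all 3 of which were below both WT libraries. The library labelled dKO replicate 3 was only slightly below WT replicate 2. The share of all tested genes with this pattern on TPM is not given here. On log2(TPM + 1) the fold change was -0.85 (adjusted p = 0.698, limma). The number of counts behind 1 TPM unit, divided by the median of that ratio in the same library, was 1.07 and 1.08 in WT and 1.12 in the library labelled dKO replicate 3. It was 4.62 and 3.92 in those labelled dKO replicates 1 and 2. The highest of the 5 values was 4.31 times the lowest, a wider range than in 98.4% of the 10114 genes with at least 20 counts in every library, whose median range was 1.14. For Dusp10 the same ratio was 0.49 in WT replicate 1 and 0.83 to 1.04 in the other libraries, and both scales gave the same direction. For Dusp1, Dusp2, Dusp5, Dusp6 and Spred1 the range was 1.03 to 1.08. The cause of the Spry1 ratio was not tested.

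**Figure D4:**
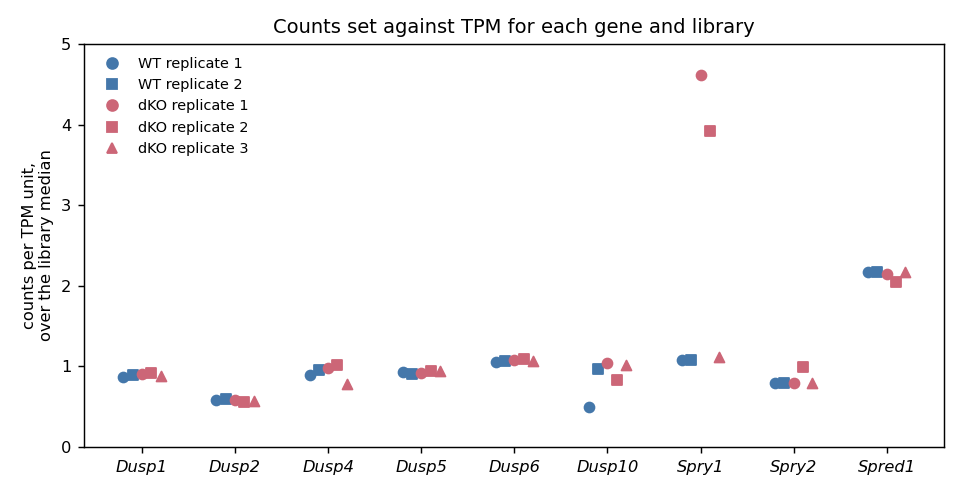
Counts per TPM unit of each gene divided by the median of that ratio over genes in the same library (vertical axis, starting at 0), for the 5 libraries. Values are nearly equal across libraries for most genes, whereas Spry1 is at 4.62 and 3.92 in the libraries labelled dKO replicates 1 and 2 and at 1.07 to 1.12 in the other 3.

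The libraries that stood highest differed from gene to gene. Among the libraries labelled dKO, replicate 1 was the highest for Dusp2, Dusp6 and Spry1, replicate 2 for Dusp4, and replicate 3 for Dusp1, Dusp5, Dusp10, Spry2 and Spred1. Averaged over the 6 Dusp genes and relative to each gene's mean, log2 CPM was -0.62 and -0.69 in WT, against 0.59, 0.86 and -0.15 in the 3 labelled dKO, the last of these lowered by the 3 counts of Dusp4. By the median, which that gene moves less, the values were -0.31 and -0.66 in WT and 0.59, 0.60 and 0.27. For Spry1, Spry2 and Spred1 the averages were 0.07 and 0.02 in WT, against 0.26, -0.82 and 0.47 in the 3 labelled dKO. The WT pair lay between the libraries labelled dKO for these 3 genes. The genes with the profile most like the mean of the 9, by the root mean square difference of gene-centred log2 CPM over the 5 libraries, were Tcp11l2 (0.0632), Tmc6 (0.0637), Srsf4 (0.0675), Mll1 (0.0722) and Ccnl2 (0.0825), among 10055 genes with a mean of at least 5 CPM. The nearest single gene was Macf1 for Dusp1 (0.0416), N4bp2 for Dusp2 (0.0850), Iigp1 for Dusp5 (0.121), Birc2 for Dusp6 (0.0609), Etohd2 for Dusp10 (0.112), Wdr26 for Spry2 (0.0644), 2700078E11Rik for Spry1 (0.0780) and Cdkn2c for Spred1 (0.124). For Dusp4 the nearest was Wfs1, at a far larger difference of 0.732.

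The other phosphatases had mixed directions. The 3 other Sprouty and Spred genes tested had a median log2 fold change of 0.87, which is that of Spred3 (standard error 2.22), and Spred2 stood at 0.01. These values and that of Spry4 give no shared direction. Of 22 other dual-specificity and slingshot phosphatase genes 16 were tested, 10 higher and 6 lower, against 52.2% of all tested genes higher. Their median log2 fold change was 0.24. Every library labelled dKO lay above both WT libraries in CPM in 2 of the 16 and below both in 1. The shares of all tested genes were 13.7% and 15.6%. On TPM 7 of the 16 had every library labelled dKO above both, against 18.6% of all tested genes. An unadjusted edgeR p under 0.05 was found in 2 of these 16, against 4.94% of all tested genes higher and 5.19% lower. They were Ssh1 (1.98) and Ssh2 (0.78), which encode cofilin phosphatases and not MAP kinase phosphatases. Dusp16, a Jnk and p38 phosphatase, measured 10.9 and 9.33 CPM in WT, against 8.26, 21.3 and 24.3 CPM in the 3 labelled dKO, and Dusp7, an Erk phosphatase, 3.95 and 3.41 against 2.62, 17.2 and 5.63 CPM. For both genes the library labelled dKO replicate 1 was the lowest of the 5. Dusp8 had 3 counts in 1 library and 0 in the others, and Dusp9 had 24 and 4 counts in WT, against 15, 0 and 0 in the 3 labelled dKO. Spry4 had 0 counts in both WT libraries, where 3 counts would be 0.114 to 0.12 CPM, and 1, 20 and 70 counts in the libraries labelled dKO (unadjusted p = 0.0435, adjusted p = 0.491, edgeR). It passed the filter on low counts through the libraries labelled dKO alone, so its direction was set by the filter. Spred2 and Spred3 spread widely, at 66 and 57 counts in WT against 41, 10 and 138, and at 23 and 9 against 30, 38 and 0.

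For the kinases that these genes restrain, the list medians were below that of the Dusp genes, a difference that was not tested. Of 25 tested genes of the Ras, Raf, Mek and Erk list 14 were higher and 11 lower, near the 52.2% of all tested genes that were higher. The median log2 fold change was 0.24. The gene with the smallest p was the kinase Araf, at 113 and 124 CPM in WT, against 172, 173 and 160 CPM in the 3 labelled dKO (log2 fold change 0.51, adjusted p = 0.458, edgeR). The adaptor Gab1 had 2.11 and the phosphatase Ptpn11, which promotes Ras activation, -1.21. Of 23 tested p38, Jnk and Erk5 genes 19 were higher, against the same 52.2%, with a median of 0.33. Map2k7, the kinase that activates Jnk, measured 14.7 and 10.2 CPM in WT, against 31.0, 43.8 and 24.6 CPM in the 3 labelled dKO (log2 fold change 1.42, adjusted p = 0.436, edgeR). The others with the smallest p were Mapk9 (0.54), which encodes Jnk2, Map3k4 (1.05) and Map3k11 (1.22). Of 25 tested brakes on Ras and on receptor kinases 17 were higher, against the same 52.2%, with a median of 0.40. Among the higher ones were the ubiquitin ligases Cbl (1.34) and Cblb (1.35) and the Ras GTPase activator Rasa4 (1.28). Rasal2 had 16 and 12 counts in WT and 0 in each library labelled dKO. None of these genes passed the adjusted threshold, and at an unadjusted p under 0.05 each of the 3 lists held 1 higher gene (Araf of 25 tested, Map2k7 of 23 and Rasa4 of 25), a share near the 4.94% of all tested genes. The lower gene was Rasal2, which passed the filter on low counts through the WT libraries alone. In CPM every library labelled dKO lay above both WT libraries in 7 of the 25 Ras, Raf, Mek and Erk genes. The same held for 6 of the 23 p38, Jnk and Erk5 genes and 5 of the 25 brakes, against 13.7% of all tested genes. The opposite pattern held in 2, 0 and 2, against 15.6%. On TPM the first pattern held in 9, 9 and 11, against 18.6%.

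Transcripts listed as Erk-dependent, from a list that does not hold the 9 genes, had fold changes above 0 wherever they were tested. The list holds many immediate early genes, and Erk activity was not measured. Of the 37 entries of the list 30 passed the filter on low counts. All 30 had a fold change above 0, against 52.2% of all tested genes, with a median log2 fold change of 1.0. An unadjusted edgeR p under 0.05 was found in 13, against 4.94% of all tested genes, and 0 were called at the adjusted threshold. In 18 of the 30 every library labelled dKO was above both WT libraries, against 13.7% of all tested genes. Immediate early genes of these libraries were already known to be higher when the list was drawn up, so it is not independent evidence of a direction. The transcription factor gene Jun measured 437 and 377 CPM in WT, against 970, 1101 and 896 CPM in the 3 labelled dKO (log2 fold change 1.28, adjusted p = 0.247, edgeR). The nuclear receptor gene Nr4a1 measured 44.1 and 121 CPM in WT, against 499, 1471 and 851 CPM in the 3 labelled dKO (3.51, adjusted p = 0.356, edgeR). Btg2, an antiproliferative gene, had a log2 fold change of 1.90 and Klf6, a Kruppel-like factor, 1.08. Across the libraries the median of the list, relative to each gene's mean, was -0.48 and -0.86 in WT, against 0.28, 0.48 and 0.48 in the 3 labelled dKO. The medians of the 6 Dusp genes, the p38 and Jnk list, the brakes and the upstream receptors also had all 3 libraries labelled dKO above both WT libraries. Except for the Dusp genes the gap was small. The lowest library labelled dKO and the highest WT library stood at 0.05 and -0.10 for the p38 and Jnk list. They stood at 0.02 and -0.00 for the brakes, and at -0.01 and -0.10 for the receptors. Upstream receptors had 15 of 20 tested genes higher, against 52.2% of all tested genes, with a median of 0.40. In 5 of the 20 every library labelled dKO was above both WT libraries in CPM, against 13.7% of all tested genes. On TPM that held in 7, against 18.6%. Kit, the stem cell factor receptor, measured 441 and 347 CPM in WT, against 699, 842 and 572 CPM in the 3 labelled dKO (log2 fold change 0.84, adjusted p = 0.434, edgeR). Flt3, whose protein the sort excluded, had a log2 fold change of 0.91, and the endothelial and stem cell receptor Tie1 1.27. Kit, Flt3 and Tie1 were among the 4 of 20 receptors higher at an unadjusted edgeR p under 0.05, against 4.94% of all tested genes.

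**Figure D5:**
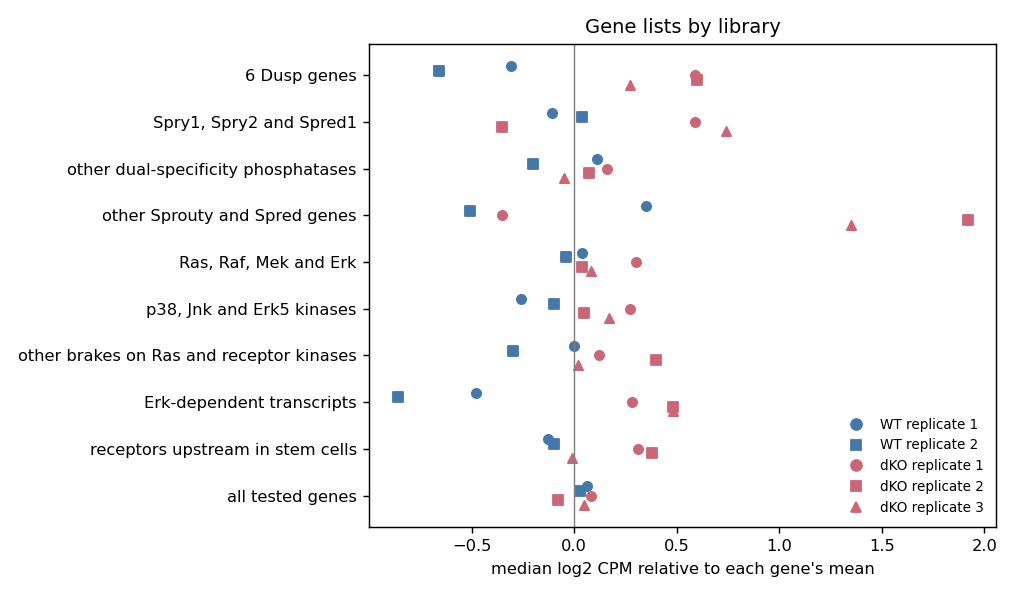
Median log2 CPM relative to each gene's mean (horizontal axis) for each gene list and library, with WT in blue and libraries labelled dKO in red. The Dusp genes and the Erk-dependent transcripts separate all 3 libraries labelled dKO (0.27 or more) from the WT pair (-0.31 or less), the p38 and Jnk list, the brakes and the receptors separate them by less, and Spry1, Spry2 and Spred1 have the library labelled dKO replicate 2 at -0.35, below the WT pair.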

How the data were processed

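Bulk RNA-seq of 5 libraries was analysed, 2 WT and 3 dKO by their titles. The authors deposited whole-number raw counts of each gene and TPM in a file of its own for each library, per the file headers. The submitters' processing notes list the build mm9, TopHat2 2.1.1, HTSeq, RSEM 1.2.31, DESeq2, Trimmomatic and FastQC 0.11.5. The tool behind each kind of value was not given in the sources used here. In each file 30 of 33924 entries name no gene. They held 0.216% to 0.269% of the counts and were left out.

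The test was that of edgeR 4.0.16 (R 4.3.3, TMM scaling, filterByExpr, robust quasi-likelihood fit, all 5 libraries, no covariate, two-sided), with Benjamini-Hochberg adjustment over 13696 genes and a threshold of 0.05. CPM use TMM-scaled totals, and log2 CPM a prior count of 2. The biological coefficient of variation was 67.9%. Chi-square over its degrees of freedom was 106 to 172 between libraries of 1 group, far beyond sampling noise. Where a gene has 0 counts, 3 counts, or 0.111 to 0.181 CPM, is the limit for counting error alone.

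The members and the 7 pathway and 9 marker lists were chosen with earlier results of these data known. Of 263 list entries 261 matched by symbol, 1 by Ensembl identifier (Hras) and 1 (Spry3) had no match. Named genes are the 9 members, up to 4 genes with the smallest p per pathway list, Dusp7, Dusp8, Dusp9, Dusp16, the other Sprouty and Spred genes, the nearest profiles, Lrp5 and Lrp6. Of the genes so chosen, 2 are not reported here. The edgeR fit was tested on simulated data. Alternatives were DESeq2 1.42.0, limma-voom (limma 3.58.1) with sample weights, RLE and upper quartile scaling, limma on log2 TPM (pseudocount 1 or 0.1), a stricter filter (5 CPM in 2 libraries) or none, a block for the replicate number, and leaving out single libraries.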

Additional observations from a re-analysis of the deposited data

How the results depend on the processing

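The Dusp genes and Spry2 kept a positive difference under all 14 alternatives, and no alternative called any of the 9 genes. The alternatives refit the same libraries, so they are not separate pieces of evidence. The ranges of the log2 fold change were 0.17 to 0.54 for Dusp1, 0.86 to 1.36 for Dusp2, 0.16 to 2.76 for Dusp4, 0.94 to 1.82 for Dusp5, 0.59 to 0.96 for Dusp6, 1.62 to 3.11 for Dusp10 and 0.10 to 0.78 for Spry2. The lowest value of Dusp2 (0.86) came without WT replicate 1, and that of Dusp6 (0.59) without WT replicate 2. An unadjusted p under 0.05 was reached in 13 of the 14 alternatives for Dusp2 and Dusp6, 12 for Dusp10 and 9 for Dusp5. Spry1 reversed to -0.85 and -1.05 on log2 TPM with a pseudocount of 1 and 0.1 and to -0.22 without dKO replicate 1, the leave-one-out range being -0.22 to 0.31. Spred1 reversed to 0.04 without WT replicate 1 and to 0.41 without dKO replicate 2, with a leave-one-out range of -0.49 to 0.41, and the replicate block gave -1.22. The smallest adjusted p of any of the 9 genes was 0.0644, for Dusp2 with DESeq2.

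Over all genes, where edgeR called 0 higher and 0 lower, DESeq2 called 154 and 91, the fit with no filter 5 and 3, log2 TPM 3 and 2 (pseudocount 1) or 2 and 0 (pseudocount 0.1), and the leave-one-out fits 0 to 2 and 0 to 3. With the replicate block 1 gene was called higher and 0 lower. The numbers 1 and 2 are shared by the groups, but deviations of same-numbered libraries correlated at only 0.0325 and 0.0458, so the numbers were not taken to pair the libraries. The median of all tested genes moved from 0.04 to 0.14 on log2 TPM.

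List medians moved as follows, the cause not being tested. On log2 TPM with a pseudocount of 1 and 0.1 the median of the 9 genes was 0.94 and 0.93, of Ras, Raf, Mek and Erk 0.38 and 0.38, of the p38 and Jnk list 0.45 and 0.49, and of the brakes 0.61 and 0.64. With a pseudocount of 0.1 that of Spry1, Spry2 and Spred1 was -0.40. With limma-voom the median of the 9 genes was 0.38, of the 6 Dusp genes 0.96 and of the other Sprouty and Spred genes -0.19. The replicate block gave 0.08 for the other phosphatases and 0.12 for the p38 and Jnk list. In the leave-one-out fits the medians ranged from 0.59 to 0.86 for the 9 genes, 0.88 to 1.35 for the Erk-dependent transcripts, 0.12 to 0.35 for Ras, Raf, Mek and Erk, 0.15 to 0.54 for the brakes, -0.08 to 0.36 for the other phosphatases and 0.26 to 0.47 for the p38 and Jnk list. The lowest of these values came without dKO replicate 3 for Ras, Raf, Mek and Erk (0.12), without dKO replicate 2 for the brakes (0.15) and without WT replicate 2 for the other phosphatases (-0.08). No member of the other Sprouty and Spred list passed the filter of 5 CPM, so that setting gave no value.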
